A study of Rattus norvegicus with 6 samples.

Results

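The vacuolar-type proton pump (V-ATPase) has a membrane sector, V0, through which protons pass, and this account covers 10 listed genes of V0 and its accessory subunits in bone cells caught on different protein coatings. Members were the rows of the deposited table whose platform annotation gives exactly 1 symbol, that symbol being on the list. This gave 9 of the 10 genes, each with 1 row, among 14506 genes with such a row. The gene not reported is Atp6v0a2, whose row also carries the symbol Tctn2. All cells were taken from long bones of 2 to 5 day old Sprague Dawley animals, with no genetic change or drug named in the labels. They were left to attach to plates coated with mouse prothrombin (PT), the precursor of the clotting protease thrombin, or with bovine milk osteopontin (OPN), a bone matrix phosphoprotein bound by integrins. Their RNA was hybridised to Rat Gene 1.0 ST arrays of Affymetrix, 3 for PT (replicates 1, 2 and 4) and 3 for OPN (replicates 2, 3 and 4). The labels name an attached fraction and not a purified cell type, and they do not say that replicates came from separate animals, so the spread behind the p-values is that between arrays and may be technical.

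The V-ATPase uses ATP, split by its cytosolic V1 sector, to turn a rotor that carries protons across a membrane. V0 holds the rotor ring of c and c'' subunits, the stationary a subunit that forms the proton path along the ring, the d subunit that joins the ring to the central stalk of V1, the small e subunit, and the accessory proteins Atp6ap1 and Atp6ap2. Every cell uses such pumps to acidify lysosomes and other compartments, and osteoclasts also place them in the ruffled border, the membrane that secretes acid onto bone. Mammals have alternative genes for the a and d subunits, and the forms a3, encoded by Tcirg1, and d2 are known for their abundance in osteoclasts. Loss of a3 causes osteopetrosis in mice and in people.

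Array medians lay between 207.8 and 231.4 units of PLIER signal, the linear intensity deposited for each row. Arrays of the same coating correlated at 0.988 or more across rows, and arrays of different coatings at 0.979 or less. Detection was not called, so dim rows may be mostly background, and precision is limited by having 6 arrays. The marker genes of osteoclasts that could be read were Acp5, the tartrate-resistant acid phosphatase gene, Ctsk, Mmp9, Itgb3 and Calcr, and the first 4 rose on OPN. Calcr, the calcitonin receptor gene, read 146 to 167 units on PT and 154 to 201 on OPN, and its coatings overlapped (log2 difference 0.18, limma adjusted p = 0.416). Marker lists of other cell types moved on the same arrays and are given beside the subunits below.

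Most V0 and accessory genes stood higher in OPN-adherent cells, by modest amounts, and the d2 subunit gene stood far above the rest. Differences below are OPN minus PT on the scale log2(signal + 16), tested with limma over all 29215 rows, and rose or fell is written only of genes with an adjusted p below 0.05. Of the 9 genes 7 rose and 0 fell, where 5.05% of all rows were called higher and 0.77% lower. Before adjustment 1 gene, Atp6v0a1, lay lower with a limma p below 0.05. The median difference was 0.39 over the 9 genes and 0.03 over all rows. Every OPN array lay above every PT array in 8 of the 9 genes and below in the remaining gene, Atp6v0a1, against 16.3% and 7.4% of all rows. In bulk RNA such as this, more cells of a type and more RNA per cell cannot be told apart.

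**Figure D1:**
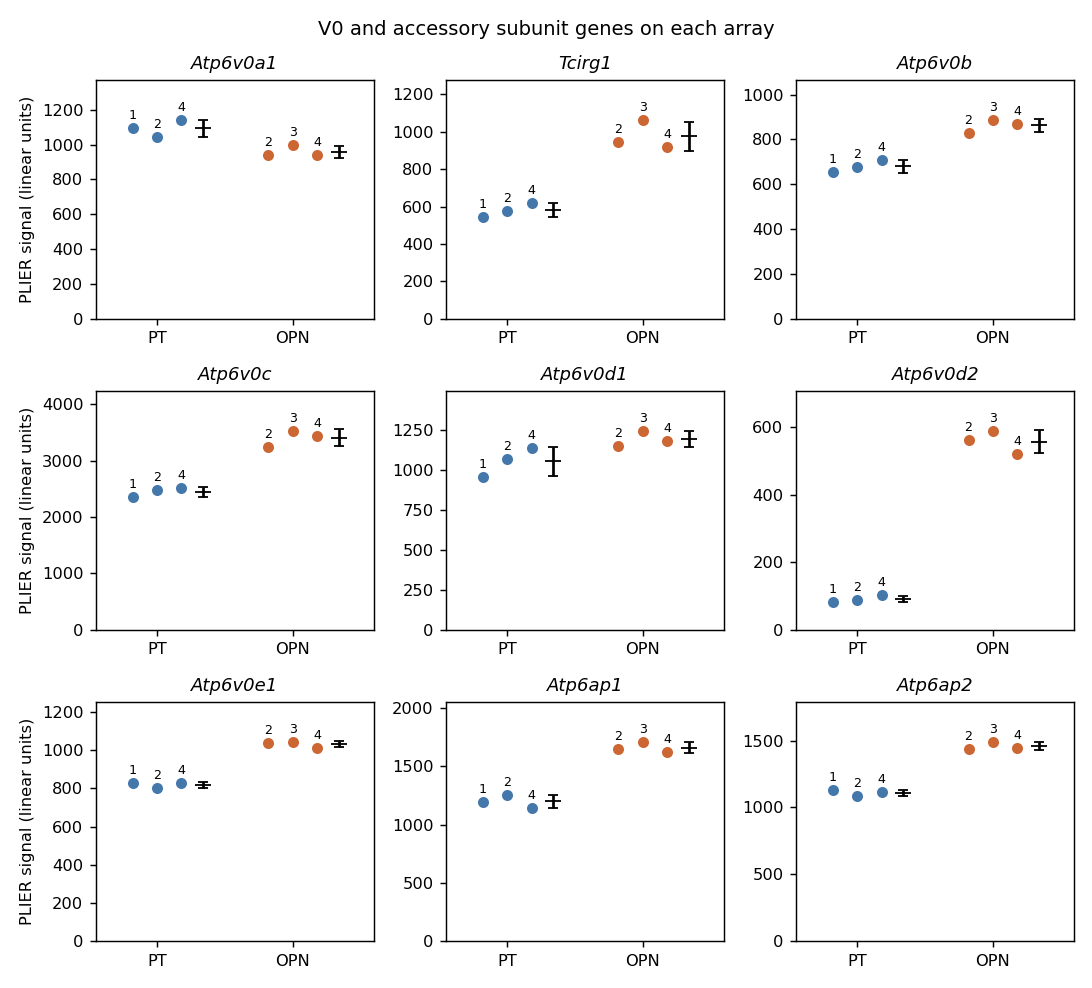
PLIER signal in linear units (vertical axis, from 0) of each of the 9 genes on the 3 PT arrays (blue) and the 3 OPN arrays (orange), labelled by replicate number, with the mean and SD of each coating in black. Atp6v0d2 read 83.1 to 102.0 units on PT and 520 to 589 on OPN, and Atp6v0a1 is the gene in which OPN lies lower.

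The d subunits gave the widest contrast between alternative forms of a subunit. Atp6v0d2, whose loss in mice impairs the fusion of osteoclast precursors, read 83.1, 88.5 and 102.0 units on PT replicates 1, 2 and 4. On OPN replicates 2, 3 and 4 it read 561, 589 and 520 units. The OPN arrays all lay far above the PT arrays. Its log2 difference was 2.42 with an SE of 0.088, a 5.35-fold rise (95% interval 4.66 to 6.15, limma adjusted p = 1.1e-06). On PT its mean of 91.2 units had only 7.54% of genes below it, so that signal may be largely background, and the fold may then understate the difference. The offset of 16 also shrinks folds of dim rows, so the rise was 2.60 on the log2 scale with an offset of 1 and 2.00 with 64.

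Atp6v0d1, the form of the d subunit found in all tissues, behaved otherwise. It read 957, 1067 and 1137 units on PT replicates 1, 2 and 4, and 1150, 1244 and 1178 on OPN replicates 2, 3 and 4. The coatings did not overlap, but the highest PT array lay just under the lowest OPN array. The log2 difference of 0.18 (SE 0.083) did not pass (limma adjusted p = 0.319), and its 95% interval ran from -0.01 to 0.36. Within each array, the log2 ratio of Atp6v0d2 to Atp6v0d1 averaged -3.32 ± 0.048 on PT and -1.08 ± 0.072 on OPN (SD, n = 3), so that it shifted by 2.24 (SE 0.050). The value of such a ratio has no meaning across different probes, and only its shift between coatings is read. By exact two-sided permutation p was 0.1, which is the smallest p 3 against 3 arrays can give, and 0.125 adjusted over the 5 paralogue contrasts computed.

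The a subunit genes moved in opposite directions, though only the rise passed. Tcirg1, which encodes the a3 form of lysosomes and the ruffled border, read 544, 577 and 621 units on PT replicates 1, 2 and 4. It read 946, 1066 and 917 units on OPN replicates 2, 3 and 4, so that all OPN arrays lay clearly above all PT arrays. The rise was 0.73 on the log2 scale (SE 0.085), or 1.66-fold (95% interval 1.45 to 1.90, limma adjusted p = 0.00117). Atp6v0a1, the a1 form best known from neurons and their synaptic vesicles, read 1095, 1046 and 1144 units on PT replicates 1, 2 and 4. On OPN replicates 2, 3 and 4 it read 941, 1001 and 938, each below the lowest PT array. Its log2 difference of -0.19 (SE 0.070, 95% interval -0.35 to -0.03) did not pass (limma adjusted p = 0.205). With quantile normalisation it was called lower, at -0.24 and limma adjusted p = 0.0396, where 2.55% of all rows were called lower.

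Set against each other within arrays, Tcirg1 gained on Atp6v0a1 in every OPN array. The log2 ratio was -0.99, -0.84 and -0.86 on PT replicates 1, 2 and 4, and 0.01, 0.09 and -0.03 on OPN replicates 2, 3 and 4. The shift of 0.92 (SE 0.058) corresponds to a 1.89-fold change of the ratio, with exact two-sided p = 0.1 and 0.125 adjusted. Making array medians equal cannot alter a ratio within an array, and with quantile normalisation the shift was 0.91. The contrasts planned with Atp6v0a2 were not made, since that gene has no row of its own.

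The table also holds Atp6v0a4, the a4 form of the acid-secreting cells of the kidney, and comparisons with it were added after the data were seen. It read 256, 221 and 213 units on PT replicates 1, 2 and 4 and 242, 228 and 218 on OPN replicates 2, 3 and 4. The coatings overlapped, and the log2 difference was 0.00 with a 95% interval from -0.20 to 0.19. Tcirg1 gained 0.73 on it within arrays (SE 0.15, exact two-sided p = 0.1), with no overlap between coatings. Only 46.4% of genes had a lower mean than Atp6v0a4, and its signal may be largely background. As it hardly moved, this shift repeats the difference of 0.73 of Tcirg1 itself. Atp6v0a4 against Atp6v0a1 shifted by 0.18 (SE 0.10, exact two-sided p = 0.2), and there the coatings overlapped.

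**Figure D2:**
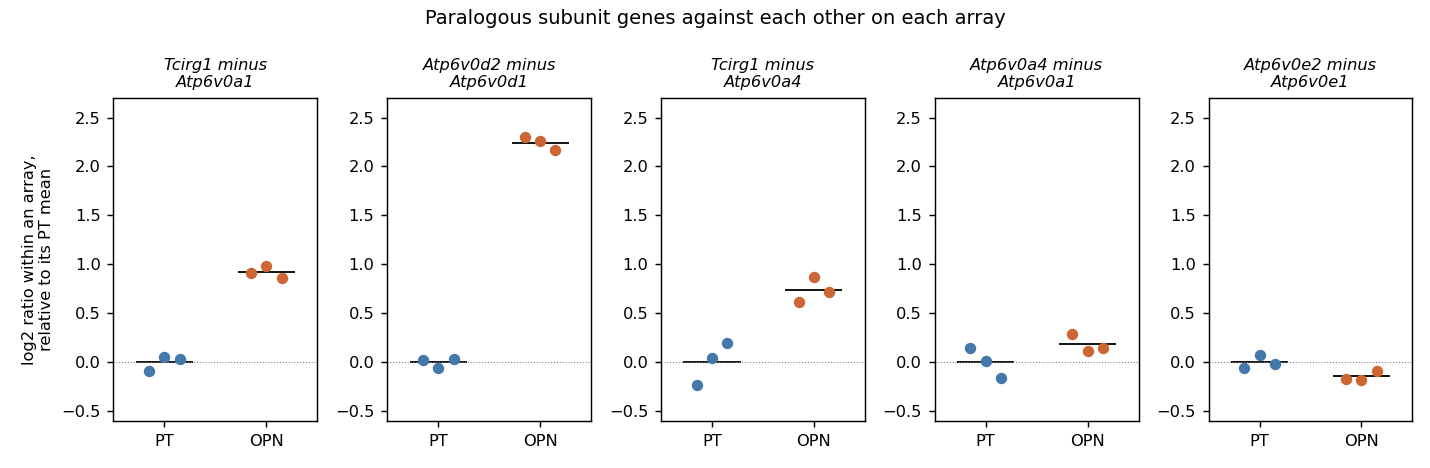
Log2 ratio of paralogous subunit genes within each array, relative to the mean of the 3 PT arrays of that pair (vertical axis, log2 units), with PT in blue, OPN in orange and the mean of each coating as a line. The shift is 2.24 for Atp6v0d2 against Atp6v0d1 and 0.92 for Tcirg1 against Atp6v0a1, while Atp6v0a4 against Atp6v0a1 overlaps between coatings.

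The rotor ring genes rose together. Atp6v0c, which encodes the c subunit that makes up most of the ring, read 2347, 2474 and 2507 units on PT replicates 1, 2 and 4 and 3237, 3531 and 3440 on OPN replicates 2, 3 and 4. The coatings were well apart, and the rise was 1.39-fold (log2 difference 0.48, SE 0.070, limma adjusted p = 0.00433). RefSeq lists pseudogenes of Atp6v0c in the rat genome, and whether its probes also match those was not tested. Atp6v0b, which encodes the c'' subunit, read 654, 677 and 709 units on PT replicates 1, 2 and 4 and 831, 889 and 870 on OPN replicates 2, 3 and 4. Its coatings did not overlap either, and the rise was 1.26-fold (log2 difference 0.34, SE 0.069, limma adjusted p = 0.0239). The call of Atp6v0b was the least stable. It was lost with equal array medians (adjusted p = 0.0756) and without each array except PT replicate 4 (adjusted p between 0.0652 and 0.115).

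The small e subunit gene Atp6v0e1 varied least between replicates. It read 830, 802 and 829 units on PT replicates 1, 2 and 4 and 1040, 1045 and 1013 on OPN replicates 2, 3 and 4, with a range within a coating of 3.30% of the mean on PT and 3.08% on OPN. All OPN arrays lay above all PT arrays, a 1.25-fold rise (log2 difference 0.33, SE 0.064, limma adjusted p = 0.0192). The call was lost on leaving out PT replicate 2 or OPN replicate 2, 3 or 4, with adjusted p between 0.0527 and 0.0948. Its paralogue Atp6v0e2, not on the member list, read 241 to 255 units on PT and 279 to 290 on OPN without passing (log2 difference 0.18, limma adjusted p = 0.181). Within arrays Atp6v0e2 lost 0.14 against Atp6v0e1 (SE 0.048, exact two-sided p = 0.1), a shift opposite in sign to those of the d2 and a3 genes against d1 and a1. This contrast was not among those planned, and with quantile normalisation its shift was -0.16 with an exact two-sided p = 0.2.

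Both accessory genes rose by amounts like those of the ring. Atp6ap1, whose product Ac45 takes part in assembling and sorting the pump, read 1195, 1257 and 1146 units on PT replicates 1, 2 and 4 and 1650, 1712 and 1624 on OPN replicates 2, 3 and 4. With the coatings well apart, the rise was 1.38-fold (log2 difference 0.47, SE 0.069, limma adjusted p = 0.0045). Atp6ap2, also known as the prorenin receptor, read 1129, 1083 and 1114 units on PT replicates 1, 2 and 4 and 1436, 1490 and 1444 on OPN replicates 2, 3 and 4. Its coatings too were well apart, and it rose 1.31-fold (log2 difference 0.39, SE 0.064, limma adjusted p = 0.008). That call just missed the threshold without OPN replicate 3 (adjusted p = 0.0511).

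Ordered by their difference, the 9 genes ran Atp6v0d2, Tcirg1, Atp6v0c, Atp6ap1, Atp6ap2, Atp6v0b, Atp6v0e1, Atp6v0d1 and Atp6v0a1. In 3 of the 8 pairs of neighbours in this order, the within-array ratios did not overlap between coatings. Atp6v0d2 exceeded Tcirg1 by 1.69 in log2 difference (SE 0.037), Tcirg1 exceeded Atp6v0c by 0.26 (SE 0.061), and Atp6v0d1 exceeded Atp6v0a1 by 0.36 (SE 0.069). In the other 5 pairs the within-array ratios overlapped between coatings, so the order within each of these pairs is not settled by these arrays. Genes further apart between Atp6v0c and Atp6v0d1 were not compared with each other in this way. Exact two-sided p was 0.1 in the first 3 pairs and 0.3 to 0.9 in the other 5, unadjusted, for pairs set by the order itself. Among the OPN arrays replicate 3 was highest in all 9 genes, also in Atp6v0a1, and among the PT arrays replicate 4 was highest in 6. The array median of OPN replicate 3 lay between those of the other 2 OPN arrays.

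Promoter sequence of the members was read from RefSeq on the GRCr8 rat assembly, as 250 bases before and 50 after each annotated gene start, and 9 of the 10 listed genes had an entry. Atp6v0d2 was not searched, having no entry, and Atp6v0a2, which has no values here, was. Whether each annotated start is the one used in these cells was not tested. The Atp6v0b window, with the lowest share of G and C (46.7%), holds a stretch that can be read as coding sequence. It may therefore lie inside the gene and not at its promoter. MITF, TFEB and TFE3 are related transcription factors that bind CACGTG and CATGTG and are known to act on lysosomal and osteoclast genes, so both motifs were searched on both strands. CACGTG is its own reverse complement, CATGTG reads CACATG on the other strand, and no stretch matches both. CACGTG stood in 2 of these 9 promoters (22.2%) and in 6.42% of all 33469 promoters, and CATGTG in 2 of 9 (22.2%) against 14% (4675 promoters). Of 10 promoters of V1 subunit genes, 0 held CACGTG and 1 held CATGTG. Among the members the matches were in Atp6v0c, Atp6v0d1 and Atp6v0e1, which differ in whether they rose. Neither a subunit gene printed below holds either motif in its window. The sequences of these 5 genes are shown to let the paralogues Tcirg1 and Atp6v0a1 be set beside the promoters with a match, 5′ to 3′ on the gene's strand in lower case with matches in capitals.
Tcirg1, GRCr8 chr1:210567886-210568185, minus strand: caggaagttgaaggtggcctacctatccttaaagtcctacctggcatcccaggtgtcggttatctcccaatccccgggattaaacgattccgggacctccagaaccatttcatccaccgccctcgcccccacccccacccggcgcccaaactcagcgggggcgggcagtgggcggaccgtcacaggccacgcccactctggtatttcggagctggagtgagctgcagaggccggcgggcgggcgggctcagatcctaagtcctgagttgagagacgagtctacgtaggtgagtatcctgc
Atp6v0a1, GRCr8 chr10:86435891-86436190, plus strand: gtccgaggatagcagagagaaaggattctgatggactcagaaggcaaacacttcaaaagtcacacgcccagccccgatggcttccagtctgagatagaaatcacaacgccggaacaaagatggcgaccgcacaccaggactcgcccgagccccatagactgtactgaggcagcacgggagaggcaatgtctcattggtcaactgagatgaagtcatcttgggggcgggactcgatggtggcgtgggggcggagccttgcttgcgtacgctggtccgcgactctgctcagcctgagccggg
Atp6v0c, GRCr8 chr10:13705793-13706092, minus strand: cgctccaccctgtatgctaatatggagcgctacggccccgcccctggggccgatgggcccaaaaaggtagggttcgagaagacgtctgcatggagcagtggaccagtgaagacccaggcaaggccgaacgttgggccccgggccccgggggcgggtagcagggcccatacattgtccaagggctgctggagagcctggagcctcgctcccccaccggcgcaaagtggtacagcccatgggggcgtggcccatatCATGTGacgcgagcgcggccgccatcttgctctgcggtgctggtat
Atp6v0d1, GRCr8 chr19:50357199-50357498, minus strand: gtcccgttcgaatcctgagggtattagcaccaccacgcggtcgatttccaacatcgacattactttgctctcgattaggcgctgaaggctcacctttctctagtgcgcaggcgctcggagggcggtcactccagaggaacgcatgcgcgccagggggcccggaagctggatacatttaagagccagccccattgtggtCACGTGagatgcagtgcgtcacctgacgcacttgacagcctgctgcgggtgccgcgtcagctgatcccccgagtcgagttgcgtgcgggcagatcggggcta
Atp6v0e1, GRCr8 chr10:17007107-17007406, minus strand: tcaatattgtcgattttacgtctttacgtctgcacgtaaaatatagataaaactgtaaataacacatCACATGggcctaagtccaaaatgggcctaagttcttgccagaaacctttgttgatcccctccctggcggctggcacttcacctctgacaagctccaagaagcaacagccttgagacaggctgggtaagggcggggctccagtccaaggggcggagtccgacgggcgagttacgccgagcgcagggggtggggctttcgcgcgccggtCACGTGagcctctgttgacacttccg
The CACGTG of Atp6v0d1 begins 52 bases before the annotated start and that of Atp6v0e1 24 bases after it. The CATGTG of Atp6v0c begins 4 bases after the start, and the CACATG of Atp6v0e1 183 bases before it. A match is a description of letters and not a binding site, and a window without a match says nothing of the factors. Of the genes for these factors, Tfe3 had no row with 1 symbol and was not read. Mitf read 179 to 197 units on PT and 197 to 213 on OPN with overlap (log2 difference 0.12, limma adjusted p = 0.462). Tfeb read 588 to 705 units on PT and 569 to 656 on OPN, also with overlap (-0.10, limma adjusted p = 0.656). The related gene Tfec fell, from 224 to 245 units on PT to 182 to 193 on OPN (-0.32, limma adjusted p = 0.0317). Leaving out any array other than PT replicate 1 ended that call (adjusted p from 0.0878 to 0.129).

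The cytosolic V1 sector, which splits ATP and is given here for comparison, held 13 measured genes. Of these, 7 rose and 0 fell, in limma's test also without adjustment. Their differences ran from -0.13 to 0.61 with a median of 0.36. The 4 with the smallest p were Atp6v1a (0.61), the catalytic subunit gene, Atp6v1g1 (0.57) and Atp6v1f (0.49), both stalk subunit genes, and Atp6v1b2 (0.45), the common form of the nucleotide-binding B subunit. The call of Atp6v1b2 was lost without OPN replicate 3 (limma adjusted p = 0.0537). In the rows used, the largest V1 difference was thus below that of Tcirg1 and far below that of Atp6v0d2, a comparison made without a test. Atp6v1a has 2 rows, and with them averaged its difference was 0.69, so its dimmer row gave more than 0.61. That dimmer row must then lie above the 0.73 of Tcirg1, so the order of Atp6v1a and Tcirg1 depends on the row used. Without OPN replicate 3 the V1 genes called higher numbered 3 (3.18% of all rows), and without OPN replicate 2 they numbered 4 (3.36% of all rows). With the replicate number added to the fit as a block, 1 V1 gene was called higher, beside 618 of all 29215 rows. Rnasek, a small membrane protein also found in V0, rose from 1222 to 1344 units on PT to 1757 to 1950 on OPN in its brighter row (log2 difference 0.50, limma adjusted p = 0.00503). The other of its 2 rows read a mean of 464 units on PT and 465 on OPN, and with the rows averaged the call was lost (0.25, limma adjusted p = 0.0679).

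Of the genes that help assemble or regulate the pump, the 6 measured had a median difference of 0.10, and 1 of them rose and 0 fell. The gene that rose was Oxr1 (0.78, limma adjusted p = 0.000556), an oxidation resistance gene whose TLDc domain is shared with proteins that bind V1. Tbc1d24 (-0.13), Wdr7 (0.16) and Tmem199 (0.12) had the next smallest p and were not called. The 7 measured partners of the pump in acid secretion and vesicle traffic had a median of 0.27, and 3 of them rose and 0 fell. Snx10, a sorting protein gene whose loss gives osteopetrosis, rose most, from 184 to 204 units on PT to 474 to 554 on OPN (log2 difference 1.35, limma adjusted p = 2.09e-05). Slc4a2 (0.67), the bicarbonate exchanger gene, and Clcn7 (0.49), the chloride-proton exchanger gene, also rose, while Ostm1 (0.27), the partner of the Clcn7 product, was not called. Of the 7 partners 6 had a difference above 0 and 1, Car2, below. Car2 read a mean of 8897 units on PT and 7673 on OPN, with overlap (log2 difference -0.21, limma adjusted p = 0.334).

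**Figure D3:**
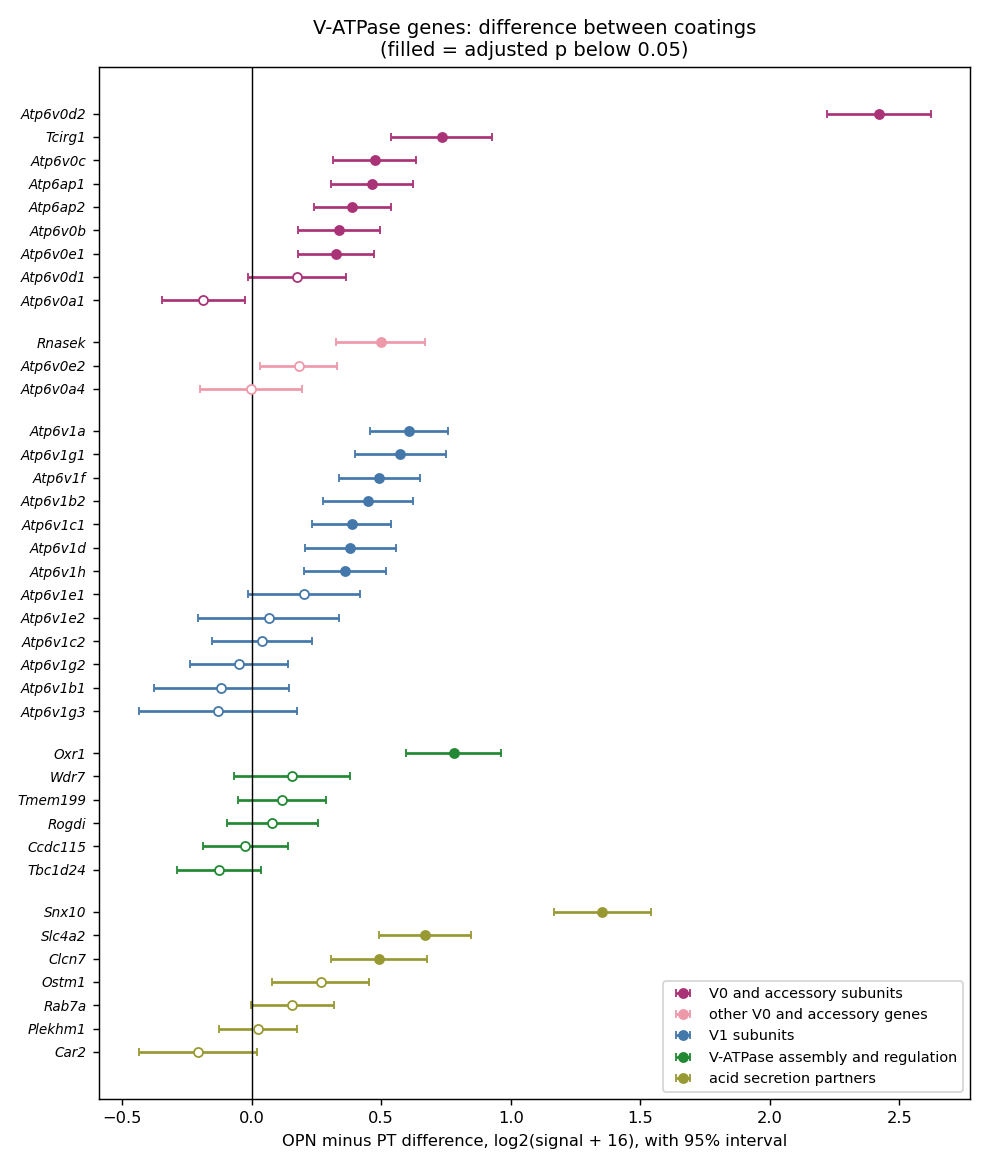
OPN minus PT difference on the log2(signal + 16) scale (horizontal axis) with its 95% interval for each V-ATPase gene and its partners (vertical axis), coloured by list, filled where limma's adjusted p was below 0.05. Atp6v0d2 at 2.42 and Snx10 at 1.35 stand apart, and all other called genes lie between 0.33 and 0.78.

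Profiles most like those of 3 members were sought among the other 14505 genes, by the root mean square distance between log2 values over the 6 arrays after centring each gene on its mean. Since the arrays fall into 2 coatings, this likeness rests mostly on the size of the coating difference. The nearest to Atp6v0d2 were Rcn3 (distance 0.071), an endoplasmic reticulum calcium-binding protein gene, and Acp5 (0.079). Fkbp7 (0.090), Ifitm3 (0.11) and the osteocalcin gene Bglap (0.11) followed, so that markers of osteoclasts and of osteoblasts both stood among the 5. Nearest to Tcirg1 were Nfkbiz (0.030), Junb (0.038), Plxnd1 (0.039), Lrrc59 (0.040) and Gusb (0.044), of which Gusb encodes a lysosomal glucuronidase. Atp6v0a1 was nearest to the aminoacyl-tRNA synthetase genes Lars1 (0.012) and Aars1 (0.013) and to Prkar2a (0.017), Ubxn2a (0.018) and Lpin2 (0.019), all 5 of them uncalled.

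Markers of several cell types moved on the arrays on which the subunits rose. Of the 5 measured osteoclast markers 4 rose, and their summed signal ran from 2555 to 2684 units on PT and from 19520 to 22000 on OPN. All 8 osteoblast and osteocyte markers rose, with sums of 6918 to 7579 units on PT and 30330 to 34210 on OPN. Such sums weigh the brightest rows most. Col1a1 alone had means of 5553 units on PT and 20319 on OPN, and among the osteoclast markers Ctsk had 430 and 9057. All 7 stromal fibroblast markers rose, from sums of 1041 to 1128 units to 5900 to 6619. All 6 endothelial and all 4 measured platelet and megakaryocyte markers rose, with medians of 0.67 and 0.73. Of 10 macrophage markers 7 fell and 0 rose, with sums of 12160 to 12560 units on PT and 8091 to 8689 on OPN. The granulocyte and lymphocyte lists had 0 called of 6 and of 4 measured by limma (2 and 0 higher at an unadjusted p below 0.05), while 1 of 5 measured chondrocyte markers rose and 1 of 5 erythroid markers fell (2 higher and 4 lower at an unadjusted p below 0.05). Which of these markers lay above background was not called. The part that any of these cell types has in the differences of the subunits was not tested.

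**Figure D4:**
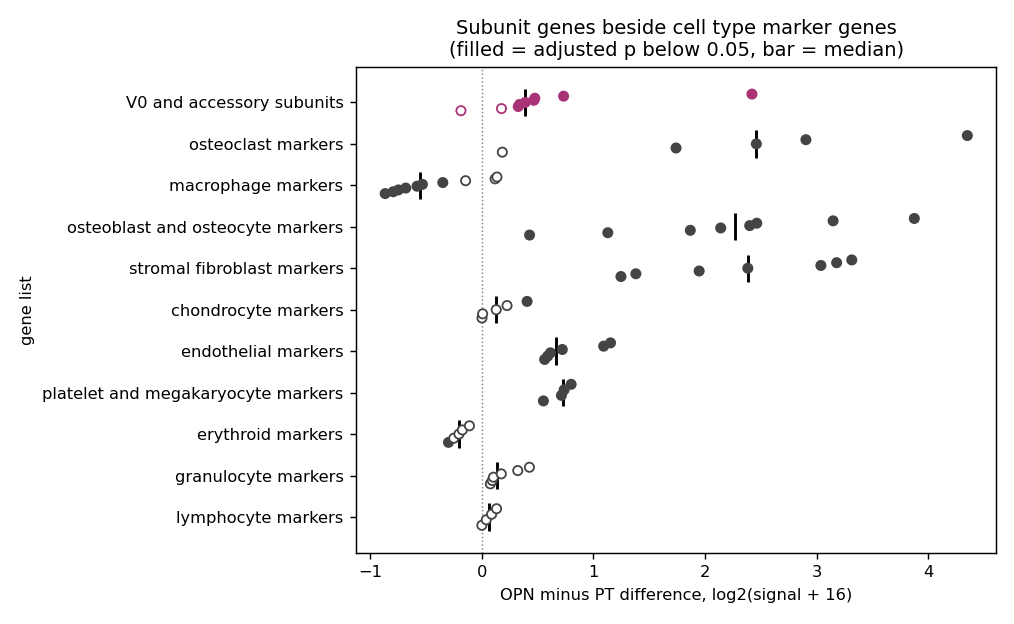
OPN minus PT difference on the log2(signal + 16) scale (horizontal axis) of each subunit gene and each marker gene by list (vertical axis), filled where limma's adjusted p was below 0.05, with the list median as a bar. The subunit genes have a median of 0.39, the osteoclast markers 2.46, the osteoblast and osteocyte markers 2.27 and the macrophage markers -0.56.

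The members differed in how far their calls depended on single arrays and on the setting. Atp6v0d2 and Tcirg1 were called higher under all 14 alternatives run, with log2 differences of 2.00 to 2.60 and 0.62 to 0.78. Atp6v0c and Atp6ap1 were called under all but 1 each, that with the replicate number as a block. That block also ended the calls of Atp6ap2, Atp6v0b and Atp6v0e1. Atp6v0d1 was called under none of the 14, at 0.08 to 0.23. Atp6v0a1 kept its sign in all 14, at -0.25 to -0.16. Without OPN replicate 3, 4 members were called higher in place of 7, with 3.18% of all rows called higher. With the block 2 members were called higher, beside 618 of all 29215 rows.

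**Figure D5:**
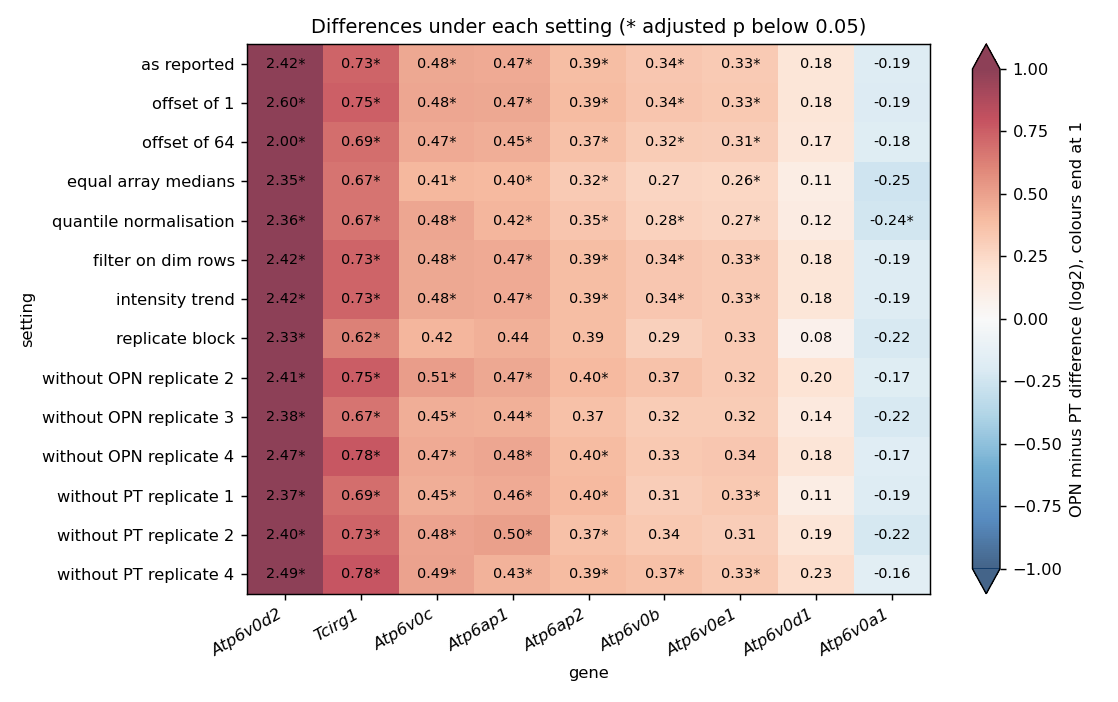
OPN minus PT difference (log2) of each of the 9 genes (horizontal axis) under each setting (vertical axis), with an asterisk where limma's adjusted p was below 0.05. Atp6v0d2 and Tcirg1 carry an asterisk in every setting shown, Atp6v0d1 in none, and Atp6v0a1 with quantile normalisation alone.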

How the data were processed

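Per the labels' protocols, 300 ng of column-purified RNA from the attached cells was labelled with biotin, leaving ribosomal RNA in. The deposited values are 1 linear intensity per probe set and array, made with Affymetrix Expression Console and PLIER per the submitters' processing notes. How the signals were corrected for background or scaled between arrays is not stated. Rows were named through the platform annotation: 15310 of 29215 had 1 symbol, 323 had several and 13582 had none. Of these, 15279 had an Entrez identifier in the GRCr8 gene table, and 0 symbols differed there.

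Values were analysed as log2(intensity + 16), using limma 3.58.1 (lmFit, eBayes; R 4.3.3) with a term for the coating and Benjamini-Hochberg adjustment over all rows. The fit was tested on simulated data with independent noise in each row, which cannot show effects shared by the rows of an array. No filter was used. Genes named beside the members are, per list, the 4 with the smallest p, all measured osteoclast markers, and the 5 nearest profiles of 3 members. Car2 is named besides, as the acid secretion partner that lay lower. The members and lists were chosen with earlier results of these data known. Alternatives were an offset of 1 or 64, equal array medians, quantile normalisation, a filter at a mean of 50, an intensity trend, the mean of a gene's rows, a replicate block and leaving out each array.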

Additional observations from a re-analysis of the deposited data

How the results depend on the processing

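No member's difference and no paralogue contrast changed sign, while the median over all rows, 0.03 as reported, was -0.04 with equal array medians and -0.03 with quantile normalisation. Without each array in turn, rows called higher numbered 928 to 1357 (1475 as reported) and rows called lower 95 to 181 (225 as reported), and members called higher 4 to 7. Over these the log2 difference ranged from 0.31 to 0.37 for Atp6v0b, 0.31 to 0.34 for Atp6v0e1 and 0.37 to 0.40 for Atp6ap2. Rows called lower numbered 560 with equal array medians, 745 with quantile normalisation, 508 with an intensity trend and 382 with an offset of 64. The share of calls higher on OPN thus moved with scaling: 1198 rows were higher with equal medians and 1360 with quantile normalisation. Equal medians took 0.07 off every difference, which left Atp6v0b at 0.27 (uncalled). With quantile normalisation Atp6v0a1 was called, at -0.24, so 1 member fell. Replicate numbers 2 and 4 occur in both coatings, but nothing in the labels ties them, and the deviations of same-numbered arrays correlated at -0.08 and 0.07 across rows. With the replicate number as a block, which leaves the comparison to 4 arrays, 618 rows were called higher and 48 lower and 2 members higher. Atp6ap1 (0.44), Atp6ap2 (0.39), Atp6v0b (0.29), Atp6v0c (0.42) and Atp6v0e1 (0.33) were then uncalled. So were Rnasek (0.49) and Clcn7 (0.42), and 1 of the 13 V1 genes was called higher. The planned contrasts with Atp6v0a2 could not be run. Each of the 9 genes has 1 row, so averaging a gene's rows changed no value of theirs.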
